A study of Rattus norvegicus with 8 samples.

Results

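The glutathione S-transferases described here are 10 genes, Gsta2, Gsta3 and Gsta4 of the alpha class, Gstm1, Gstm2 and Gstm3 of the mu class, Gstp1 of the pi class, Gstt1 of the theta class, and the microsomal Mgst1 and Mgst2. They were chosen by name, through the RefSeq accession of each probe, and each was read from its probe of highest mean Cy5 signal, out of 10003 named genes with a measurable probe. All 10 had Cy5 well above background on all 8 arrays, so that no member was lost to the filter on dim probes. The animals were male Sprague-Dawley offspring sampled as adults, at 78 to 86 days of age, and their liver RNA was hybridised on 8 Agilent arrays with a pair of dyes, all on 1 slide. The 4 control arrays came from offspring of dams given corn oil alone, and the 4 AhR arrays from offspring of dams given a mix of non-ortho polychlorinated biphenyls, polychlorinated dioxins and furans in corn oil at 1.8 ng per kg per day of TCDD toxic equivalents, from gestation day 0 to postnatal day 20. These agents activate the aryl hydrocarbon receptor (AhR). Pups of both groups stayed with their birth mothers. Each array carried RNA of 2 rats of a group, paired at random, in Cy5, which makes 8 rats per group. Whether pools shared litters is not given in the sources used here, and the p-values measure the spread between pools. The Cy3 channel of every array held the same commercial reference, pooled from 14 rat cell lines per the labels, with no dye swap. The comparison asks whether exposure before weaning left a difference in the adult liver.

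Glutathione S-transferases join the tripeptide glutathione to reactive or electrophilic compounds and so prepare them for export from the cell. The cytosolic classes are dimeric enzymes, and the microsomal members are membrane proteins of a separate family. Alpha and mu enzymes are abundant in rat hepatocytes. The pi enzyme encoded by Gstp1 is scarce in normal adult rat hepatocytes and is found in bile duct cells. It is also a classic marker of preneoplastic foci in rat liver. AhR ligands act through xenobiotic response elements and oxidative stress through antioxidant response elements, and rat Gsta2 is a textbook gene that carries both.

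Array medians of the Cy5 signal ran from 159 to 232 scanner units over a local background of 71 to 76. All 16 hepatocyte markers on the list were above background, for a tissue labelled as liver. Their mean log2 ratios of Cy5 over Cy3 ran from -0.49 to 0.82 with a median of 0.27, and 12 of the 16 were brighter in the liver pools than in the reference. These ratios are after loess and, without a dye swap, open to dye bias. The reference was also bright at such markers, with a Cy3 signal of 107545 to 138460 units at Alb and 84527 to 176062 at Apoc3. The number of arrays limits the precision, and no value here comes from a count of molecules.

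RefSeq start-site windows of assembly GRCr8, each of 250 bases before to 50 bases after the annotated start, were held for 8 of the 10 genes. The 4 genes with a match to the core of the xenobiotic response element, GCGTG, or of the antioxidant response element, TGACNNNGC, are shown because these elements are the ones that the AhR and the oxidative stress response are known to use. Both strands were searched, and matches are in capitals.

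Gsta2, chr8:88077043-88077342, minus strand: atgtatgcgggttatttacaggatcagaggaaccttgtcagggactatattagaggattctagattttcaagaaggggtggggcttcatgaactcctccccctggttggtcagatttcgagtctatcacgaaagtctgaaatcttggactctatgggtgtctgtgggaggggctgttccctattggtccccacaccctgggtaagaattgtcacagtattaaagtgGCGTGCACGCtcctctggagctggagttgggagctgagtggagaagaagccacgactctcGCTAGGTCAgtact

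Gsta3, chr9:31154739-31155038, plus strand: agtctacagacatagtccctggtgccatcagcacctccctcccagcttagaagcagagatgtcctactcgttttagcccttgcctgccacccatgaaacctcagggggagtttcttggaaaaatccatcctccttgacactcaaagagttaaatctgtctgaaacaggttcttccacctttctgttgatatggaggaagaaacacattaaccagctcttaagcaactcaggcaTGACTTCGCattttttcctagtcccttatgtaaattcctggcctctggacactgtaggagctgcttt

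Gsta3, chr9:31166793-31167092, plus strand: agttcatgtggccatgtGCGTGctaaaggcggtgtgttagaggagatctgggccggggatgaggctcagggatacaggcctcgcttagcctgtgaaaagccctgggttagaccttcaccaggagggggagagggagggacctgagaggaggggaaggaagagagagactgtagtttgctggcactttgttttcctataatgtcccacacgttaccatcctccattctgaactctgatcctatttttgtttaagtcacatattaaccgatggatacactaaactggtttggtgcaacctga

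Gsta4, chr8:87947015-87947314, plus strand: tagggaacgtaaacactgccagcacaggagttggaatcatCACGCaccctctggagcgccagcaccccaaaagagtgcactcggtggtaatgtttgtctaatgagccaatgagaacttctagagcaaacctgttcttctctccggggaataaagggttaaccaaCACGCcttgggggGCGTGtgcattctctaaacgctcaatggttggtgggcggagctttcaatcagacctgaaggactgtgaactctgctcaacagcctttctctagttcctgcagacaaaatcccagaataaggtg

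Gstp1, chr1:210769656-210769955, minus strand: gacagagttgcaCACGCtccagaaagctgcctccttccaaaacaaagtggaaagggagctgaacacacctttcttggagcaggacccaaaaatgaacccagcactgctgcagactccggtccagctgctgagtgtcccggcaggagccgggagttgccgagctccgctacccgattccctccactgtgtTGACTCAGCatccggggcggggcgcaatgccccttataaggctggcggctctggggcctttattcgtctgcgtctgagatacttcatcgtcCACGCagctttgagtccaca

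GCGTG was present in Gsta2, Gsta4, Gstp1 and 1 of the 2 annotated Gsta3 windows, and in 29.7% of 33469 windows of the same length over all genes. In Gsta2 it occurred on opposite strands at -24 and -19, counted from the start site at 0, as adjoining copies. Gsta4 held 3 copies, at -210, -86 and -73. TGACNNNGC was present in Gsta2 at 36, in the other Gsta3 window at -17 and in Gstp1 at -61, and in 12.1% of all windows. Gsta2, Gsta3, Gsta4 and Gstp1 each held at least 1 of the 2 motifs, and the windows of Gstm1, Gstm2, Gstm3 and Mgst1 held neither. Windows of other alpha and pi genes are not described here. No match of the 2 motifs overlapped another in these windows, and a match of these letters is a description of the window only. Bases outside the windows were not searched, and whether any match is a known element of its gene, also in Gsta2, was not tested.

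None of the 10 genes differed between AhR and control by the test over all probes. Of 17857 probes, 0 (0%) passed at an adjusted limma p of 0.05, where the lowest adjusted p was 1.00, and 288 (1.61%) had an unadjusted p under 0.05. None of the 10 members reached an unadjusted p of 0.05. The AhR mean was lower for 6 members and higher for 4, beside 52.3% of all probes lower, and the members' median difference was -0.11 against -0.01 over all probes (log2 ratio, AhR minus control). With Cy5 alone 8 of the 10 were lower. In no member did the 4 AhR arrays separate from the 4 control arrays, and 1.19% of all probes did so. The 95% interval of the difference lay within 2-fold in either direction for all 10 genes and within 1.5-fold for 7, so that these arrays bound the differences in the ratios without showing that the groups are alike. The slide held 2 control and 2 AhR arrays in each of its 2 rows, and the members' median difference was -0.04 within row 1 and -0.13 within row 2.

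**Figure D1:**
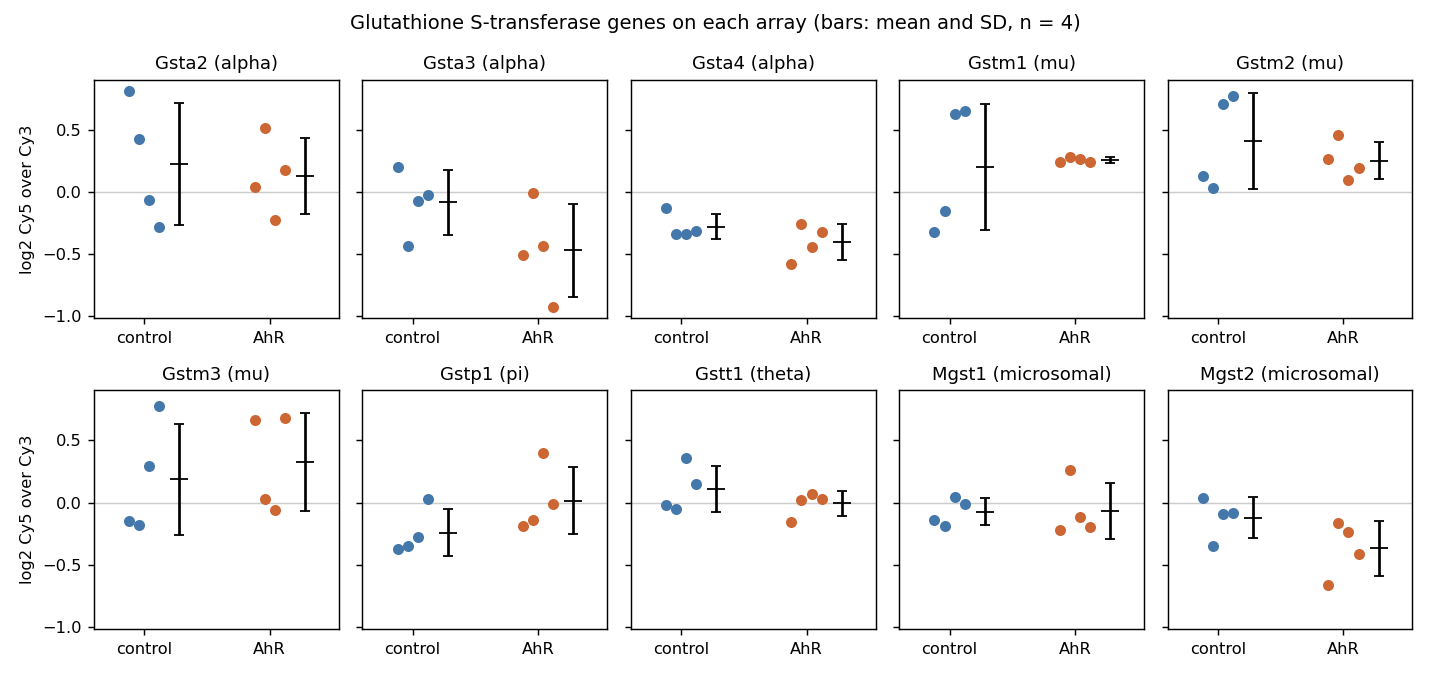
Log2 Cy5 over Cy3 of each of the 10 genes, with 1 point per array and 4 arrays per group; bars are the mean and SD. Control and AhR points overlap in every panel, and the 4 Gstm1 points of AhR lie close together between 2 low and 2 high control points.

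The alpha class, which handles lipid peroxidation products and many drugs, had lower AhR means in 3 of 3 members, with a median difference of -0.12, none of them past the test. Gsta3, the subunit also known as Yc2, gave log2 ratios of 0.20, -0.43, -0.07 and -0.02 in control replicates 1 to 4 and of -0.51, -0.01, -0.43 and -0.93 in AhR replicates 1 to 4. Control replicates 1, 3 and 4 were between -0.07 and 0.20, AhR replicate 4 was lowest, and AhR replicate 2 lay among the controls. Control arrays averaged -0.08 ± 0.26 and AhR arrays -0.47 ± 0.38 (SD, n = 4 each). The difference of -0.39 (SE 0.19, 95% interval -0.80 to 0.03) did not pass (unadjusted limma p = 0.0657, adjusted p = 1.00; exact permutation p = 0.200). Within the slide rows it was -0.53 and -0.24, and with 1 array left out it ran from -0.54 without AhR replicate 2 to -0.23 without AhR replicate 4, with no call in either direction.

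A second probe carries the same RefSeq accession for Gsta3 and gave different values. The brighter probe was read from 1 spot per array, at Cy5 23997 to 82411 and Cy3 24995 to 36828 units. The second probe was read from 2 spots, at Cy5 634 to 1408 and Cy3 3207 to 4208 units. Its log2 ratios were -1.87, -2.91, -2.28 and -2.68 in control replicates 1 to 4 and -2.88, -2.99, -2.99 and -2.86 in AhR replicates 1 to 4. The reference was therefore 6.42-fold brighter than liver at this probe over the 8 arrays, against 1.21-fold at the brighter one. The gap between the 2 probes was 2.40 on average and ran from 1.93 to 2.98 (log2) over the arrays, and it had the same direction on all 8. The second probe differed by -0.50 between groups (SE 0.19, limma unadjusted p = 0.0255, adjusted p = 1.00; exact permutation p = 0.0857). Both probes had lower AhR means, under each of the 6 normalizations set side by side, with -0.26 to -0.39 at the brighter probe and -0.42 to -0.51 at the second. The 4 AhR values of the second probe spread by an SD of 0.07, and the control values by 0.46, with control replicate 2 inside the AhR range. Which transcripts each probe binds was not tested, and the 2 annotated start windows printed above belong to this gene.

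**Figure D2:**
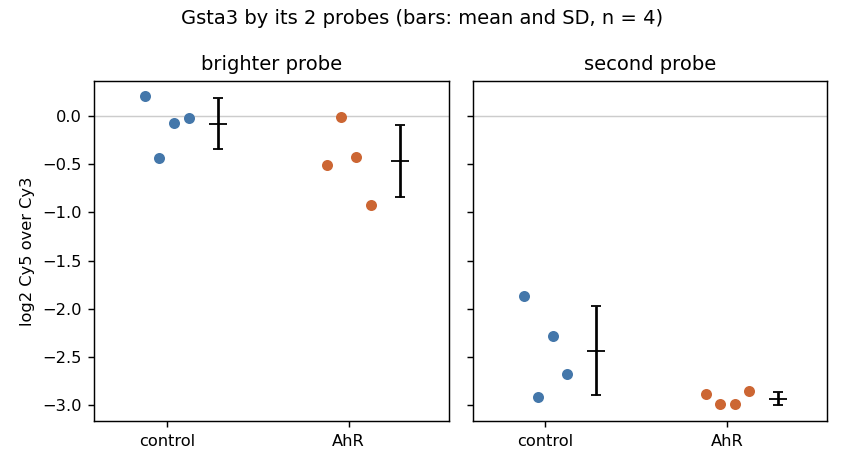
Log2 Cy5 over Cy3 of Gsta3 at its brighter and its second probe, 1 point per array, 4 arrays per group, with mean and SD. The brighter probe lies between -0.93 and 0.20 and the second between -2.99 and -1.87.

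Gsta2, the subunit known as Ya and the textbook AhR- and stress-responsive transferase, gave 0.81, 0.43, -0.06 and -0.28 in control replicates 1 to 4 and 0.04, 0.51, -0.22 and 0.17 in AhR replicates 1 to 4. The control arrays alone spanned the whole range of both groups. The difference was -0.10 (SE 0.23, 95% interval -0.61 to 0.41, exact permutation p = 0.771) and changed sign when control replicate 1 (0.10) or AhR replicate 3 (0.02) was left out, so that the class then had 2 of 3 members lower. Its Cy5 signal ran from 99915 to 205418 units. Gsta4, the subunit specialised for the lipid aldehyde 4-hydroxynonenal, differed from the other alpha genes in being steady. It gave -0.13, -0.34, -0.34 and -0.31 in control replicates 1 to 4 and -0.58, -0.26, -0.44 and -0.32 in AhR replicates 1 to 4. The AhR arrays took in the control values except control replicate 1. The difference was -0.12 (SE 0.10, 95% interval -0.35 to 0.10, exact permutation p = 0.257). Gsta2 and Gsta5, and Gsta3 and Gsta1, are closely related genes, and how far the probes tell them apart was not tested.

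The mu class, which conjugates epoxides and aromatic compounds, had 2 members with higher and 1 with a lower AhR mean, at a median difference of 0.06. Gstm1, an abundant hepatocyte subunit, gave -0.32, -0.15, 0.62 and 0.65 in control replicates 1 to 4 and 0.24, 0.28, 0.27 and 0.24 in AhR replicates 1 to 4. Control replicates 1 and 2 were low and 3 and 4 high, and all 4 AhR arrays fell in the gap between them. The SD was 0.51 in control and 0.02 in AhR (n = 4 each), and no test of this difference in spread was made. The means differed by 0.06 (SE 0.21, 95% interval -0.40 to 0.51, exact permutation p = 0.686). This direction turned with Cy5 alone (-0.03) and without control replicate 1 (-0.12) or control replicate 2 (-0.06).

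Gstm2, whose gene neighbours Gstm1 and Gstm3 in the annotation, followed the same division among controls. It gave 0.13, 0.03, 0.70 and 0.77 in control replicates 1 to 4 and 0.26, 0.45, 0.10 and 0.19 in AhR replicates 1 to 4. Control replicates 3 and 4 stood above all AhR arrays and replicate 2 below them. The difference was -0.16 (SE 0.17, 95% interval -0.54 to 0.23, exact permutation p = 0.429). Gstm3, the third mu gene, gave -0.15, -0.18, 0.30 and 0.77 in control replicates 1 to 4 and 0.66, 0.03, -0.06 and 0.68 in AhR replicates 1 to 4. Here both groups held low and high arrays. Its Cy5 signal of 266 to 504 units stood over an array background of 71 to 76, and it differed by 0.14 (SE 0.24, 95% interval -0.38 to 0.67, exact permutation p = 0.629).

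Averaged over its 3 members, the mu class had a log2 ratio of -0.11, -0.10, 0.54 and 0.73 in control replicates 1 to 4 and of 0.39, 0.26, 0.10 and 0.37 in AhR replicates 1 to 4. The alpha class average was 0.29, -0.11, -0.16 and -0.20 in the same controls and -0.35, 0.08, -0.37 and -0.36 in AhR replicates 1 to 4. Control replicate 1 was highest of the 8 arrays for alpha and lowest for mu.

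Gstp1, the pi transferase among the members, was the member with the largest positive difference. Its log2 ratios were -0.37, -0.35, -0.28 and 0.03 in control replicates 1 to 4 and -0.19, -0.14, 0.40 and -0.01 in AhR replicates 1 to 4. Control replicate 4 lay within the AhR range, and the other 3 controls were below it. Control arrays averaged -0.24 ± 0.19 and AhR arrays 0.02 ± 0.27 (SD, n = 4 each). The difference of 0.26 (SE 0.14, 95% interval -0.06 to 0.58) did not pass (exact permutation p = 0.171). It was 0.25 and 0.26 within the 2 slide rows, and with 1 array left out it ran from 0.13 without AhR replicate 3 to 0.35 without control replicate 4, again with no call. Gstp3, a pi gene outside the described members, differed by 0.0033 (SE 0.22). Its Cy5 signal was 62172 to 134960 units, against 872 to 1826 for Gstp1. Markers of cholangiocytes, the cells of the bile ducts, had higher AhR means in 8 of 9 measured genes, beside 52.3% of all probes lower. Their median difference was 0.10, with none past the test. Their summed Cy5 signal after loess was 3310 to 3896 in control and 3749 to 4255 in AhR. Loess evens the dyes within an array and not the brightness between arrays, so these sums also carry array brightness. Krt19 and Krt7 were measured on all 8 arrays, and Cldn4 and Slc5a1 were not well above background on any. Marker lists of other non-hepatocyte cells were also higher in AhR, in 9 of 11 genes for Kupffer cells and macrophages (median 0.15), 7 of 7 for endothelial cells (median 0.14) and 9 of 10 for stellate cells (median 0.10), while 5 of 5 erythroid genes were lower (median -0.35). These counts stand beside the same 52.3% of all probes lower. Of 16 hepatocyte markers, 8 were higher and 8 lower (median 0.03). No gene of these lists passed over all probes. The summed Cy5 signals of the non-hepatocyte lists after loess carry array brightness in the same way, and overlapped between the groups. For Kupffer cells and macrophages they were 41070 to 66863 in control and 51770 to 89611 in AhR. For endothelial cells they were 6780 to 11410 and 8980 to 11472, and for stellate cells 12442 to 16823 and 15159 to 21444. Erythroid sums were 263180 to 421515 in control and 193292 to 365234 in AhR. The part of these cells in the Gstp1 difference was not tested, and in bulk tissue the number of cells of a type and the RNA per cell cannot be told apart.

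Gstt1, the theta transferase that acts on small halogenated compounds, gave -0.02, -0.05, 0.35 and 0.15 in control replicates 1 to 4 and -0.15, 0.02, 0.07 and 0.03 in AhR replicates 1 to 4. Control replicates 3 and 4 were above all AhR arrays. The difference was -0.11 (SE 0.11, 95% interval -0.36 to 0.13, exact permutation p = 0.343).

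The microsomal members differed from each other. Mgst2, which also makes leukotriene C4, gave 0.04, -0.35, -0.09 and -0.08 in control replicates 1 to 4 and -0.66, -0.16, -0.23 and -0.41 in AhR replicates 1 to 4. All but 1 control array lay above all AhR arrays, the exception being control replicate 2. Control arrays averaged -0.12 ± 0.16 and AhR arrays -0.37 ± 0.22 (SD, n = 4 each). The difference of -0.25 (SE 0.13, 95% interval -0.53 to 0.04) did not pass (exact permutation p = 0.143). It was -0.26 and -0.23 within the slide rows, and with 1 array left out it ran from -0.32 without control replicate 2 to -0.15 without AhR replicate 1, with no call. Mgst1, a major protein of the liver endoplasmic reticulum, gave -0.14, -0.18, 0.05 and -0.01 in control replicates 1 to 4 and -0.22, 0.26, -0.11 and -0.19 in AhR replicates 1 to 4. AhR replicate 2 was the highest of the 8 arrays. The difference was 0.01 (SE 0.12, 95% interval -0.26 to 0.27, exact permutation p = 0.971), and its sign turned with Cy5 alone (-0.03), with the deposited value table (-0.0027), and without control replicate 1, control replicate 2 or AhR replicate 2.

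**Figure D3:**
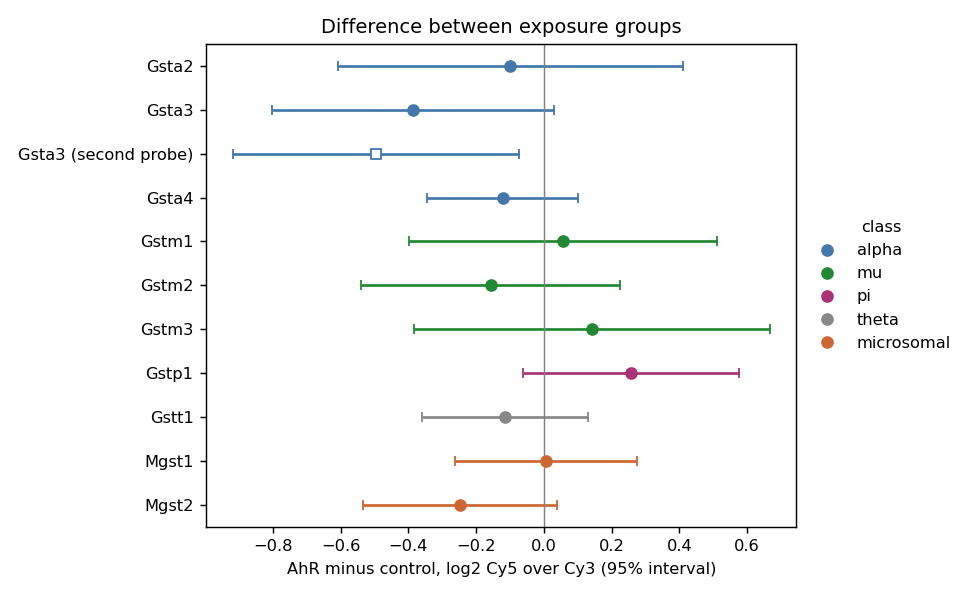
AhR minus control in log2 Cy5 over Cy3 for the 10 genes and the second Gsta3 probe (open square), coloured by class, with 95% intervals from limma. The intervals of all 10 genes include 0, and that of the second Gsta3 probe runs from -0.92 to -0.07.

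Against the reference RNA, the mean log2 Cy5 over Cy3 of the 10 transferases after loess ran from -0.34 for Gsta4 to 0.33 for Gstm2, at most 1.27-fold in either direction, apart from the second Gsta3 probe. All 3 mu genes were brighter in liver (0.23 to 0.33), as was Gsta2 at 0.18 and Gstt1 at 0.05, whereas Gsta3, Gsta4, Gstp1 and both microsomal genes were brighter in the reference. With median centring in place of loess the ratios were larger, with Gstm2 at 0.63, Gstm1 and Gsta2 both at 0.56, Gstm3 at 0.37 and Gstt1 at 0.29. Then 9 of the 10 were brighter in liver, against 5 in the main ratios, so the direction for Gsta3 (0.06), Gstp1 (0.11), Mgst1 (0.29) and Mgst2 (0.03) depends on the dye correction. Gsta4 moved from -0.34 to -0.01, so its distance from the reference also depends on the dye correction. The mu genes kept their sign. Without a dye swap these ratios are open to dye bias, and no test was made on them.

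Several members varied more between pools of the same group than most genes did. The SD within groups was 0.42 for Gstm3, 0.41 for Gsta2, 0.36 for Gstm1 and 0.32 for Gsta3, against a median of 0.17 over 10003 genes. These stood at the percentiles 96.6, 96.1, 94.1 and 91.6 of all genes. Gstm2 followed at 0.29 and percentile 88.0. Gsta4, at 0.12 and percentile 24.0, and Gstt1, at 0.15 and percentile 38.9, were below the median.

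Over the 8 arrays some pairs of members had a large r, but none of the 45 pairs passed after adjustment over the pairs. Gstm1 and Gstm2 had Pearson r = 0.84 (exact permutation p = 0.0135, adjusted p = 0.206) and Spearman rho = 0.81 (exact permutation p = 0.0218, adjusted p = 0.340). Without the 2 arrays farthest from the Gstm1 median r was 0.92, and on deviations from the group means it was 0.91 (approximate permutation p = 0.0031, adjusted p = 0.138). Gsta2 ran against Gstm1, with r = -0.81 (exact permutation p = 0.0137, adjusted p = 0.206), rho = -0.71 (exact permutation p = 0.0576, adjusted p = 0.340), and r = -0.81 without the 2 farthest arrays. Gsta3 and Mgst2 had r = 0.79 (exact permutation p = 0.0183, adjusted p = 0.206), rho = 0.90 (exact permutation p = 0.0046, adjusted p = 0.205), and r = 0.82 without 2 arrays. Gsta4 and Mgst2 had r = 0.81 (exact permutation p = 0.0158, adjusted p = 0.206) and rho = 0.67 (exact permutation p = 0.0831, adjusted p = 0.340), which rests on 2 arrays, since r fell to 0.15 without them. Of the 45 pairs, 5 had an unadjusted exact permutation p under 0.05, the fifth being Gstm2 and Gstt1 (r = 0.70, and -0.03 without 2 arrays). On deviations from the group means r was -0.81 for Gsta2 with Gstm1 and 0.68 for Gsta3 with Mgst2. It was 0.74 for Gsta4 with Mgst2 and 0.67 for Gstm2 with Gstt1. A slide row holds 4 arrays, too few for a correlation within rows.

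**Figure D4:**
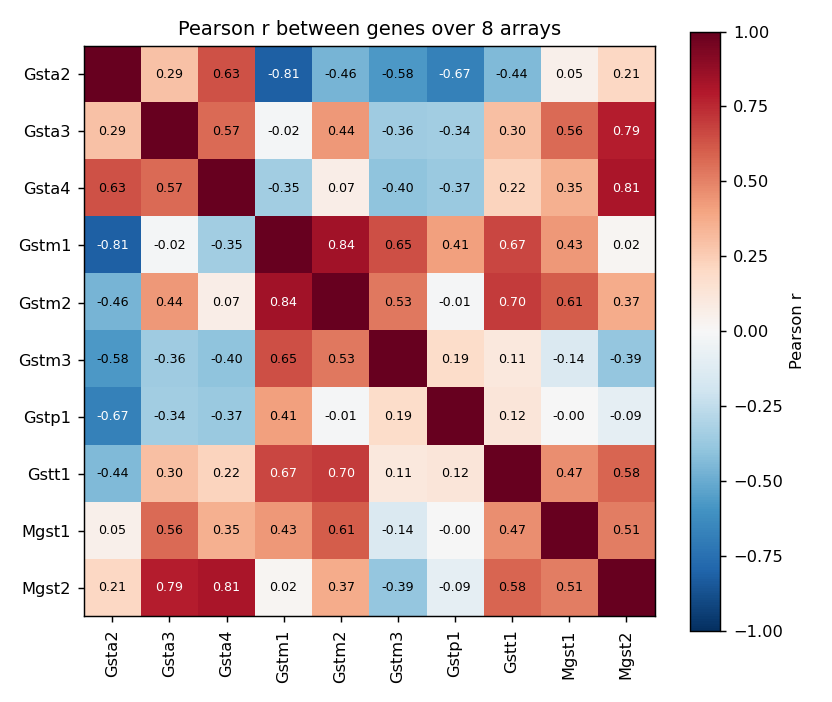
Pearson r of log2 Cy5 over Cy3 between the 10 genes over 8 arrays; red is positive and blue negative. Gstm1 and Gstm2 stand at 0.84, Gsta2 and Gstm1 at -0.81, and Mgst2 at 0.79 with Gsta3 and 0.81 with Gsta4.

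The genes whose deviations within groups were most like those of the 4 most variable members came from outside the family. For Gsta2 they were Cbx2, a Polycomb protein gene, at r = 0.99, and Atp6v0e1, a proton pump subunit gene, also at r = 0.99. For Gstm1 they were Arf2 (r = 0.99) and C8b, which encodes a complement chain (r = 0.98). For Gsta3 they were Ift22 and Rpp38 (both r = 0.98), and for Gstm3 Pabpc4 and Pdgfc (r = 0.98 and 0.96). These are the highest of 10003 genes over 8 arrays and are given as a description.

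Other genes of the family were read in the same way. Of the other transferase and related genes on the list, 18 of 24 had a measured probe, 12 had lower and 6 higher AhR means beside 52.3% of all probes lower, and the median difference was -0.08, with none past the test. Gstm5 had the smallest p, at -0.36 (SE 0.18), followed by Gsta1, the Yc1 subunit closest to Gsta3, at -0.27 (SE 0.16), and Gsta6 at -0.33 (SE 0.22). Gsto2 and Gstt4 were not well above background on any array.

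Genes that make, recycle or use glutathione were measured beside the transferases. Of 16 measured genes of glutathione synthesis and recycling, 10 had higher AhR means, with a median of 0.07. Gclc, the catalytic subunit of the rate-limiting enzyme, differed by 0.25 (SE 0.12), Gnmt, a methyltransferase of the methionine cycle, by 0.19 (SE 0.12) and Glrx5, a mitochondrial glutaredoxin, by 0.20 (SE 0.13). The 7 measured genes of the peroxidase list, among them Prdx6, had a median of 0.05, with Gpx3 at 0.20 (SE 0.14). Of 22 measured genes that export conjugates or turn them into mercapturates, 11 were higher and 11 lower. Nat8, the N-acetyltransferase of the last mercapturate step, differed by 0.61 (SE 0.26, unadjusted limma p = 0.0386; exact permutation p = 0.143), and Ggct, which degrades gamma-glutamyl peptides, by -0.25 (SE 0.11, unadjusted limma p = 0.0426; exact permutation p = 0.0571). Abcc1, an exporter of glutathione conjugates, differed by 0.16 (SE 0.09), with a mean of -0.28 in control and -0.12 in AhR. Its groups did not overlap, at the smallest exact permutation p that 4 against 4 arrays allow (0.0286), and its unadjusted limma p was 0.0873. Groups did not overlap at 1.19% of all probes either, and the Cy5 signal of Abcc1 was only 191 to 306 units. None of these genes passed over all probes (limma adjusted p = 1.00).

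Regulators of transferase genes gave no call either. Of 17 measured, 11 had lower AhR means, with a median of -0.01; Nfe2l2, which encodes NRF2, differed by -0.18 (SE 0.11), Nfe2l1 by -0.18 (SE 0.12) and Hnf4a, a hepatocyte identity factor, by 0.17 (SE 0.11). Of 8 marker enzymes of AhR activation, 3 were measured, with Nqo1, a quinone reductase, at -0.35 (SE 0.20), Cyp1a2, a P450, at 0.26 (SE 0.25) and Ugt1a6, a glucuronosyltransferase, at -0.25 (SE 0.23), while Cyp1a1 was above background on 3 of 8 arrays. NRF2 targets outside the family had a median of -0.05 over 17 measured genes. The glucuronosyltransferases and sulfotransferases, the other main conjugating enzymes, had lower AhR means in 11 of 14 measured genes, beside 52.3% of all probes lower. Their median was -0.26. Ugt2b15 differed by -0.58 (SE 0.25, unadjusted limma p = 0.0392, exact permutation p = 0.143) and Ugt2b10 by -0.33 (SE 0.14, unadjusted limma p = 0.0397, exact permutation p = 0.0857). Each of these lists had 0 genes past an adjusted p of 0.05.

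**Figure D5:**
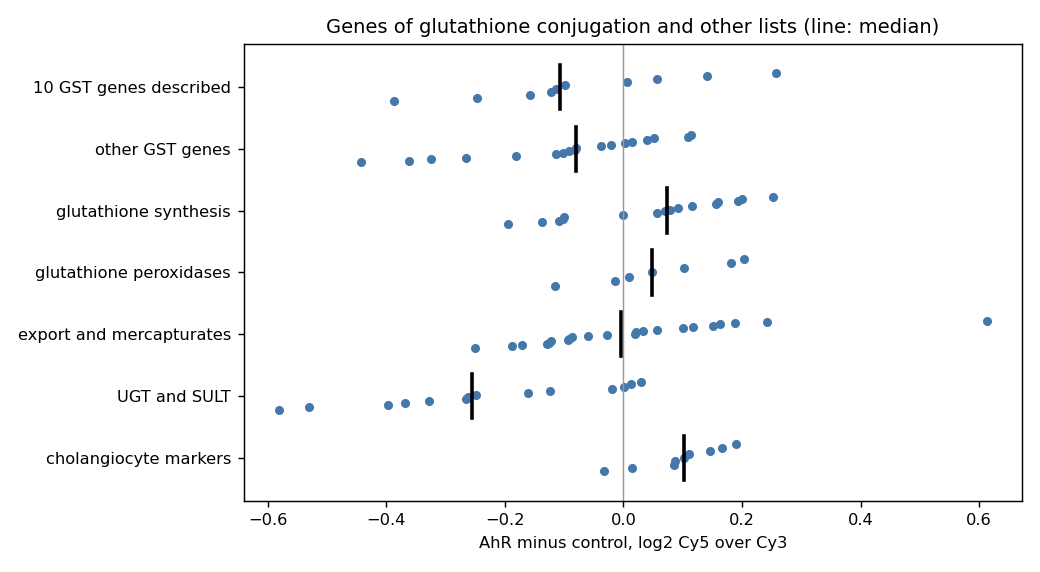
AhR minus control in log2 Cy5 over Cy3 for each measured gene of 7 lists; each point is a gene and each black line the median of its list. The 10 transferases spread from -0.39 to 0.26 around a median of -0.11, and the farthest point on the right is Nat8 at 0.61.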

How the data were processed

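Intensity values are median spot and local background brightness, as the authors deposited them; the scanner software was Agilent's Feature Extraction, version 10.7.3.1, per the file headers. From each sample 200 ng of RNA were labelled, per the labels. Background was corrected by normexp (offset 50) and arrays were normalized by loess in limma 3.58.1 (R 4.3.3), without weight for control and outlier spots. A probe was kept where Cy5 was well above background, in at least 50% of its spots, on at least 4 of 8 arrays (17857 of 30367 probes). RefSeq accessions without versions named 18004 probes through the GRCr8 gene table. Groups were compared with limma, adjusted by Benjamini-Hochberg over all kept probes. Permutation tests were two-sided and exact, except those on deviations from the group means. Those shuffled the deviations across both groups, so their p-values are approximate. The fit was tested on simulated data. The authors also deposited a log2 value table, with medians of 0.0057 to 0.0165 and a slope of 1.02 to 1.05 on the ratios used here; its direction is Cy5 over Cy3, and its dye correction is not given in the sources used here.

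The members, gene lists and tests were chosen with earlier results of these data known. All 10 members were named, and up to 3 genes of smallest p in each other list; the 2 most alike genes were named for the 4 members of largest SD. Gsta3's second probe was singled out after its values were seen, as were Gsto2, Gstt4, Gstp3, Prdx6, Cyp1a1, Krt7, Cldn4 and Slc5a1. Alternatives covered background correction, normalization, Cy5 alone, the filter, blocks, the variance model, the value table, probe choice and each array left out. Start-site windows are RefSeq's, on GRCr8; no file held one for Mgst2 or Gstt1, and those genes are named only. The arrays of the 21-day rats and of the other groups of the study are not analysed here.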

Additional observations from a re-analysis of the deposited data

Results flagged for a closer look

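Gsta4 stood out on 1 control array. Control replicate 1 had a log2 ratio of -0.13, and the other 3 control arrays lay between -0.34 and -0.31, a gap beyond Dixon's 95% critical value for 4 samples. This was the only such gap among the 22 sets of 4 values tested (11 probes in 2 groups), where chance flags about 1 in 20.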

How the results depend on the processing

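No alternative called any probe at an adjusted p of 0.05, and none called a member. The median difference of the 10 genes stayed below 0 throughout: -0.05 with median centring, -0.06 with Cy5 alone, -0.10 with an offset of 16, -0.11 with Agilent processed signals and with the value table, and -0.15 to -0.04 with 1 array left out. Of the single genes, Gsta3, Gsta4, Gstm2, Gstm3, Gstp1, Gstt1 and Mgst2 kept their direction under each of the 19 alternatives run for the members. Cy5 alone turned Gstm1 (-0.029) and Mgst1 (-0.033), and the value table turned Mgst1 (-0.0027). With 1 array left out, Gsta3 ranged from -0.54 to -0.23, Gsta4 from -0.17 to -0.062, Gstm2 from -0.28 to -0.036, Gstm3 from 0.019 to 0.34, Gstp1 from 0.13 to 0.35, Gstt1 from -0.17 to -0.032 and Mgst2 from -0.32 to -0.15, while Gsta2 ranged from -0.27 to 0.10, Gstm1 from -0.12 to 0.20 and Mgst1 from -0.10 to 0.058; the cause was not tested. The probes at an unadjusted p under 0.05 numbered 819 without control replicate 4, 505 without AhR replicate 4, 715 with no filter and 173 with median centring, against 288. With the replicate number as a block the members' median was -0.11 and 0 probes were called. Deviations of arrays with the same number correlated at 0.00, -0.06, 0.05 and -0.37. Arrays with the same number lay in different slide rows, so these values cannot decide whether the numbers pair the samples. Gsta3 had an unadjusted limma p of 0.0215 as the mean of its probes. On deviations from the group means 5 pairs of genes had an unadjusted exact permutation p under 0.05, of which 3 were among the 5 pairs over the arrays; Gsta3 with Mgst2 (p = 0.0596) and Gstm2 with Gstt1 (p = 0.0698) were lost, Gsta2 with Gstp1 (p = 0.0462) and Gstm1 with Gstt1 (p = 0.0348) were gained, and 0 passed adjustment.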

Other observations

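Genes that mark the zones of the liver lobule were measured beside the transferases. Pericentral markers had higher AhR means in 6 of 10 measured genes (median 0.05), with Cyp2e1, an ethanol-oxidising P450, at 0.23 (SE 0.33) and Rgn, a calcium-binding protein gene, at -0.17 (SE 0.13). Periportal markers had lower means in 6 of 11 (median -0.02), with Cyp2f4 at -0.17 (SE 0.11), Hal, which degrades histidine, at 0.10 (SE 0.14) and Ass1, a urea cycle enzyme, at 0.17 (SE 0.24). Both lists had 0 genes past an adjusted limma p of 0.05 and 0 at an unadjusted p under 0.05.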
